A study of Mus musculus with 6 samples.

Results

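Nlrc5 encodes a member of the NOD-like receptor family that acts as a transcriptional co-activator of the major histocompatibility complex (MHC) class I genes. It was chosen here by its low count in lenses that lack Gata3, and it was set beside genes known as its targets. These are the class I heavy chain genes H2-K1 and H2-D1, the light chain gene B2m, the peptide transporter genes Tap1 and Tap2, and Tapbp, which encodes tapasin. Of the 7 genes, 5 have a row among the 13024 genes of the count table, with 4 of the 6 targets among them. Tap1 and Tap2 were not analysed here.

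The libraries came from lenses of mouse embryos at E14.5 on a mixed C57BL/6 and FVB background. Each of the 6 libraries was a pool of 10 lenses taken from 5 embryos, and 3 pools were made per group. In the conditional knockout (CKO), Gata3 f/f embryos carried Pax6-Cre, in which an ocular enhancer and the P0 promoter of Pax6 drive Cre in the head surface ectoderm that forms lens and cornea, and Cre removed exon 4 of Gata3. The genotype labels read wild type and Gata3 -/-, and the study's text gives the control both as Gata3 f/f and as Gata3 f/wt without Cre. These pools are therefore called control, and only the CKO pools carried Cre. The mixed background can bring different alleles of the H2 genes into a pool, and their part in the counts was not tested.

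MHC class I molecules display peptides from inside the cell to T cells. A heavy chain pairs with β2-microglobulin in the endoplasmic reticulum, where tapasin holds it next to the Tap1-Tap2 transporter until a peptide is bound. Nlrc5 does not bind DNA by itself. It joins RFX5, RFXAP, RFXANK, CREB or ATF1 and NF-Y on a promoter module called SXY, and interferon-γ raises its transcription. Class I genes are expressed at low levels in most embryonic tissues and in the lens, which is an immune-privileged tissue.

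The promoters of the targets were searched for short motifs of such a module. Of them, 3 are printed together with that of H2-Q4, another class I heavy chain gene with a measured level. The sequences are the RefSeq promoters of GRCm38.p6 on the coding strand, cut to the stretch that holds the elements. Capitals mark the core of the X2 box (TGACG, bound by CREB and ATF factors) and of the Y box (CCAAT or its complement ATTGG, bound by NF-Y).
H2-K1: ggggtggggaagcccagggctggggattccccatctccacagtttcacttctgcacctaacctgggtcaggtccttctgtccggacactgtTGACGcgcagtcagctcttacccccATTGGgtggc
H2-D1: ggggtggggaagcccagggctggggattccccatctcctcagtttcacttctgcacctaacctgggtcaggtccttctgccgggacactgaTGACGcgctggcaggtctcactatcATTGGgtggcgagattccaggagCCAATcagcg
B2m: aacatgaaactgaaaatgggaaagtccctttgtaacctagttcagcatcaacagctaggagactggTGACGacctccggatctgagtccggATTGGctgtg
H2-Q4: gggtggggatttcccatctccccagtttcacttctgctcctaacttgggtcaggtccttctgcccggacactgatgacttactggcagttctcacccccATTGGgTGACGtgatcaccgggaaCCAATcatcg

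The stretch of H2-K1 lies on the reverse strand of chromosome 17 (chr17:34000354-34000479), and that of H2-D1 on its forward strand (chr17:35262902-35263050). B2m lies on chromosome 2 (chr2:122147543-122147643, forward strand), and H2-Q4 on chromosome 17 (chr17:35379439-35379571, forward strand). In H2-K1, H2-D1 and B2m, the first base of TGACG lies 25 bases before the first base of ATTGG. The same letters at this spacing, searched on both strands, occur in 31 of 32851 promoters, or 0.0944%, a spacing chosen after these promoters had been read. H2-Q4 has TGACT at this place, and its TGACG lies after the Y box. Over the whole window of 250 bases before to 50 after the start, 7.73% of promoters held both TGACG and CCAAT in either direction.

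Of the 5 target promoters found in the RefSeq table, those of H2-K1, H2-D1, B2m and Tap1 held both motifs. The Tapbp promoter held 2 matches to CCAAT and 0 to TGACG. The NF-κB pattern, GGG and CCC around 4 unspecified bases, was found in H2-K1 and H2-D1, with 3 overlapping or adjacent matches each, and in 11.9% of all promoters. An interferon response element GAANNGAAA, added after the sequences were read, was present in both heavy chain promoters and in 7.52% of all. B2m held the variant GAAANNGAA, which occurs in 8.56% of promoters. A GATA sequence (AGATAA or TGATAA, each also with G as its last base) was present in H2-D1, B2m and Tapbp and in 29.8% of all promoters. The H2-K1 and H2-D1 promoters were identical at 89.5% of aligned bases, whereas each of them was identical to B2m at 62.2% to 63.5%. A match describes these letters only, and binding was not measured.

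Between 15157230 and 18811104 fragments were counted per library. Values are given as counts and as CPM, which are counts scaled to a common library size with edgeR's TMM factors, with log2 fold changes of CKO against control. The deletion of exon 4 cannot be seen in a count over the whole gene. Gata3 had 202, 386 and 156 counts in the control libraries against 910, 1064 and 894 in those labelled CKO, so the directions below are those of the libraries labelled CKO. Lens genes were present in every library, with the 10 epithelium genes of the marker list summing to 2293 to 2618 CPM. Control replicate 1 and CKO replicate 2 stood apart by mesenchyme and pigment cell genes. Control replicate 2 stood apart by lens fibre and blood genes and had the lowest retina sum, at 1291 CPM. The values that moved most without these pools are given beside the results.

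Nlrc5 lies on the forward strand of chromosome 8 (94434356–94527272 of GRCm38). Its counts were 197, 406 and 186 in control replicates 1, 2 and 3, against 11, 3 and 4 in CKO replicates 1, 2 and 3. These counts correspond to 12.5, 28.6 and 10.4 CPM in control and to 0.71, 0.15 and 0.21 CPM in CKO. The lowest control value was 14.6 times the highest CKO value, and control replicate 2 stood above the other control pools.

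The log2 fold change of Nlrc5 was -5.63 (17.2 ± 9.97 CPM in control and 0.358 ± 0.309 in CKO, SD, n = 3), the second lowest of the 12879 genes tested. This value selected the gene and is given as a description without a test. Summed over the pools, 789 counts stood against 18, so the scaled control level was 49.7 times that of CKO (exact binomial 95% interval 31.3 to 84.3, counting error only). Without CKO replicate 1, which held 11 of these 18 counts, the log2 fold change was -6.51, and without control replicate 2 it was -5.04. In a bulk sample, fewer cells that express the gene and less Nlrc5 RNA per cell cannot be told apart.

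H2-K1 encodes a classical class I heavy chain and lies on the reverse strand of chromosome 17 (33996017–34000347). Its counts were 53, 53 and 73 in control and 62, 81 and 94 in CKO, or 3.36, 3.73 and 4.08 CPM against 4.02, 4.12 and 4.89 CPM. The groups overlapped narrowly, with the lowest CKO pool just below the highest control pool. This is a log2 fold change of 0.22, a 1.17-fold difference (95% interval 0.83 to 1.64-fold, unadjusted p = 0.324, adjusted p = 0.9998 in edgeR).

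H2-D1, the other classical heavy chain measured, lies on the forward strand of the same chromosome (35262730–35267499). Its counts were 55, 37 and 65 in control and 24, 64 and 83 in CKO. As CPM these were 3.48, 2.61 and 3.63 in control and 1.56, 3.25 and 4.32 in CKO. The CKO group held both the lowest and the highest value. Its log2 fold change was -0.09, or 0.943-fold (95% interval 0.497 to 1.79-fold, unadjusted p = 0.833, adjusted p = 0.9998 in edgeR). Its sign was set by single pools, as it was 0.22 without CKO replicate 1 and 0.0059 without control replicate 3.

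B2m, which encodes the light chain of every classical class I molecule, lies on the forward strand of chromosome 2 (122147686–122153083). Its counts were 416, 310 and 381 in control and 303, 631 and 444 in CKO. The levels were 26.4, 21.8 and 21.3 CPM in control and 19.6, 32.1 and 23.1 CPM in CKO, with the control values inside the CKO range. The log2 fold change was 0.11, or 1.08-fold (95% interval 0.78 to 1.49-fold, unadjusted p = 0.597, adjusted p = 0.9998 in edgeR), and it was -0.11 without CKO replicate 2.

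Tapbp lies on the forward strand of chromosome 17 (33915899–33929292). Its counts were 275, 337 and 344 in control and 311, 479 and 379 in CKO, corresponding to 17.4, 23.8 and 19.2 CPM against 20.2, 24.4 and 19.7 CPM. The groups overlapped, with a log2 fold change of 0.09, or 1.06-fold (95% interval 0.83 to 1.37-fold, unadjusted p = 0.573, adjusted p = 0.9998 in edgeR), and it was -0.013 without CKO replicate 2.

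**Figure D1:**
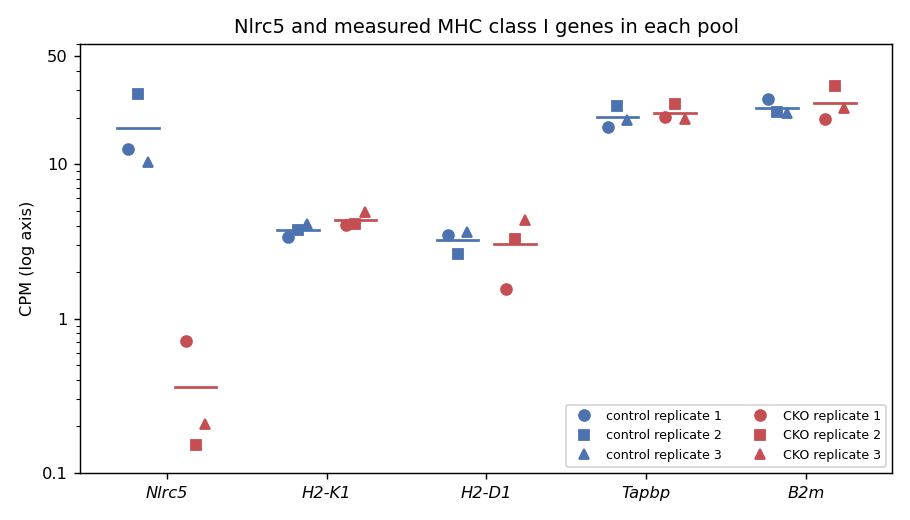
CPM on a log axis for the 5 measured genes in each of the 6 pools, with control in blue, CKO in red and a horizontal bar at the mean of 3 pools. Nlrc5 lies at 10.4 to 28.6 CPM in control and at 0.15 to 0.71 CPM in CKO, whereas the control and CKO points of the other 4 genes overlap.

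None of the 4 measured targets was lower in all CKO pools than in all control pools, against 4.69% of all genes tested (3.67% were higher in this way, and 8.36% did not overlap in either direction). By the quasi-likelihood test of edgeR, adjusted p-values under 0.05 were found in 0 of the 4 and in 0% of all genes. Unadjusted p-values under 0.05 were found in 0 of the 4, against 3.55% of all genes (2.24% lower and 1.3% higher). By DESeq2's Wald test, 85 genes of the whole table passed the adjusted threshold. The median log2 fold change of the 4 targets was 0.10 and that of all genes tested was 0.0019. Without CKO replicate 2 the median of the targets was -0.064. The lower bounds of the 95% intervals of H2-K1, B2m and Tapbp were 0.83, 0.78 and 0.83-fold, so a loss as large as that of Nlrc5 lay outside them. Smaller changes in either direction lay inside. These intervals concern the level of a whole pool, which also held retina, mesenchyme, vessel and macrophage genes. Class I levels in fibre cells alone were not measured. H2-D1 was less well determined, since its interval reached 0.497-fold.

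The collagen genes of mesenchyme moved with the highest B2m values. Col1a1, which encodes a chain of type I collagen, was at 599 CPM in control replicate 1 and at 1130 CPM in CKO replicate 2, and at 55.1 to 126 CPM in the other pools. The summed mesenchyme list of 10 genes was 323 to 2319 CPM in control and 360 to 4026 CPM in CKO. B2m was the highest of its group in these same pools. With both pools left out, an alternative chosen after the collagen counts were seen, B2m had a log2 fold change of -0.00067 and Tapbp one of -0.095, and neither had an adjusted p-value under 0.05. Pigment cell genes summed to 359 CPM in control replicate 1, 358 CPM in CKO replicate 2 and 82.7 to 119 CPM elsewhere. The part of mesenchyme or pigment cells in the level of B2m was not tested.

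Levels can be compared between genes only per length of transcript. Per kilobase of merged exons, B2m was highest in control, at 26.9 ± 3.24 CPM per kb, followed by Tapbp at 5.55 ± 0.898 and Nlrc5 at 2.02 ± 1.17 CPM per kb (SD, n = 3). H2-K1 was at 1.27 ± 0.122 and H2-D1 at 1.26 ± 0.215 CPM per kb (SD, n = 3). The last pair did not differ beyond the spread between pools, and Nlrc5 ranged from 1.22 to 3.37 CPM per kb, which overlapped both. In CKO, the levels were 29.0 ± 7.47 for B2m, 5.90 ± 0.706 for Tapbp, 1.48 ± 0.162 for H2-K1, 1.18 ± 0.540 for H2-D1 and 0.0421 ± 0.0364 for Nlrc5 (CPM per kb, SD, n = 3). Thus Nlrc5 stood beside the heavy chains in control and below all 4 targets in CKO. With the longest transcript as the length, the control levels were 1.99 for H2-K1, 1.54 for H2-D1 and 6.95 CPM per kb for Tapbp, and the order was the same. By this length the control ranges of H2-K1 (1.79 to 2.18) and H2-D1 (1.24 to 1.73) did not overlap. Whether this pair differed thus depended on the length used.

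Near-identical copies limit the counts of heavy chains. In the annotated transcripts, 8.79% of the 50-base windows of H2-K1 and 14.3% of those of H2-D1 also occur in a transcript of another gene. At 100 bases these shares were 0% and 4.64%. The share at 50 bases was 24.3% for H2-Q4, and it was 0% for Nlrc5 and B2m and 2.0% for Tapbp. Fragments of a heavy chain could therefore be left out or assigned to a paralog, and single heavy chain values are uncertain to that degree. Nlrc5 shares 78 exon bases with 9330175E14Rik on the opposite strand. Tapbp shares 149 exon bases with Zbtb22 and 904 with the antisense Gm19412, and the strand and overlap options of the counting are not given in the sources used here.

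A split of fragments among the heavy chains that are summed does not change their total. Heavy chains with a row were therefore also summed, leaving out Cd1d1, Fcgrt and Hfe. Any fragments that the counting left out as shared, or assigned to a paralog without a row, are missing from this sum. H2-K1, H2-D1, H2-Q4, H2-M5, H2-T22 and H2-Q7 together had 326, 187 and 347 counts in control and 241, 341 and 366 in CKO. Their sum was 17.7 ± 4.00 CPM in control and 17.3 ± 1.71 CPM in CKO (SD, n = 3), and the ranges overlapped. H2-K1 took 16.3% to 28.3% of the sum in control and 23.8% to 25.7% in CKO. H2-D1 took 16.9% to 19.8% in control and 9.96% to 22.7% in CKO. H2-Q4, a heavy chain of the Qa region, took the largest share in every pool except control replicate 3, where H2-M5 had 30.5% and H2-Q4 29.7%. H2-Q7 had 0 counts in all 6 libraries, although the table was limited to genes with a mean FPKM above 1 in a group, so its 0 does not show that it was not expressed. H2-T22 had 0.41 to 1.53% of the sum outside control replicate 3, where it was 0.

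The other heavy chains tested had log2 fold changes between -0.23 and 0.05, with Hfe apart. Of 29 listed genes 7 had a row and 5 were tested. The median log2 fold change was -0.04 (-0.31 to 0.014 when 1 library was left out), beside 0.0019 for all genes tested. H2-Q4 had a log2 fold change of -0.04 (SE, the standard error, 0.22), H2-M5 one of -0.23 (SE 0.41), and both groups overlapped. Cd1d1, a class I-like molecule that presents lipids, had one of 0.05 (SE 0.14), and Fcgrt, the neonatal Fc receptor, one of 0.02 (SE 0.54).

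Hfe, a class I-like regulator of iron uptake that pairs with β2-microglobulin, was at 25.9, 66.1 and 17.7 CPM in control and at 15.4, 11.1 and 8.69 CPM in CKO. All CKO pools were below all control pools, and control replicate 2 was highest, as for Nlrc5. The log2 fold change was -1.64 (SE 0.51), and the adjusted p in edgeR did not pass 0.05 (unadjusted p = 0.0165). It was the only tested gene of this list with groups that did not overlap or with an unadjusted p-value under 0.05. Over all genes tested, these shares were 8.36% and 3.55%.

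Genes that make, trim and load class I peptides were tested in 14 of 16 cases. None had an unadjusted p-value under 0.05 (3.55% of all genes tested) or groups that did not overlap (8.36%). Their log2 fold changes lay between -0.28 (Lap3) and 0.08 (Psmb10), with a median of -0.04 (-0.13 to 0.055 when 1 library was left out). Calr, Canx and Hspa5 encode chaperones of the endoplasmic reticulum, and the first pair help to fold heavy chains. Their log2 fold changes were -0.02 (SE 0.14) for Calr, 0.03 (SE 0.09) for Canx and 0.02 (SE 0.13) for Hspa5. Psmb10, a subunit of the immunoproteasome, was at 5.45, 6.06 and 5.25 CPM in control and 6.68, 5.19 and 5.88 CPM in CKO. Erap1, which trims peptides to the length that fits a class I groove, had a log2 fold change of -0.05 (SE 0.23).

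**Figure D2:**
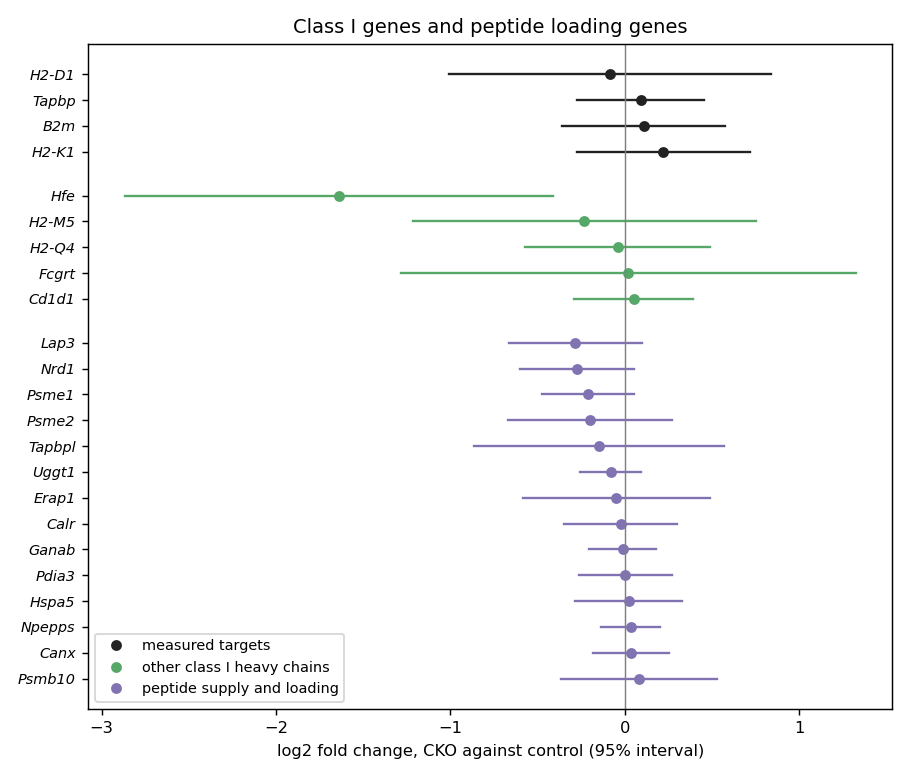
Log2 fold changes of CKO against control with 95% intervals from edgeR for the measured targets (black), the other class I heavy chains tested (green) and the genes of peptide supply and loading (violet). The intervals span 0 in all of these genes except Hfe, at -1.64.

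The factors with which Nlrc5 acts were measured in full, and all 14 of the list were tested. Their median log2 fold change was -0.02, with a range from -0.15 (Kat2b) to 0.38 (Rfxank). Rfxank, a subunit of the RFX complex that contacts Nlrc5, was at 19.1, 16.3 and 16.9 CPM in control and at 20.3 to 25.5 CPM in CKO. Its groups did not overlap, and it had a log2 fold change of 0.38 (SE 0.13, unadjusted p = 0.0219 in edgeR), which did not pass the adjusted threshold. Over all genes tested, 3.67% were higher in all CKO pools. Rfx5 had a log2 fold change of 0.17 (SE 0.12) and Rfxap one of -0.02 (SE 0.12). Creb1, Ep300 and Ehmt2, which encode a CREB factor, a histone acetyltransferase and a histone methyltransferase, had log2 fold changes of 0.02, -0.04 and 0.09.

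Genes upstream of Nlrc5 in interferon signalling and NF-κB were tested in 20 of 22 cases, with a median log2 fold change of 0.0031. None passed an unadjusted p-value of 0.05. In 2 of them, Irf1 and Socs1, all CKO pools were above all control pools, as in 3.67% of all genes. Irf1, which acts on class I promoters, had 4.18, 3.38 and 4.30 CPM in control and 4.67, 5.29 and 4.53 CPM in CKO, with a difference on the log2 scale of 0.29 (SE 0.21). The receptor gene Ifnar1 had a log2 fold change of 0.05 and the kinase genes Jak1 and Jak2 of 0.02 and 0.07.

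Of 26 interferon-stimulated genes, 10 were tested, and the median log2 fold change was -0.09 (-0.29 to 0.10 when 1 library was left out). Ifit3 was lower in all CKO pools, at 0.885 to 1.17 CPM against 1.23 to 2.47 CPM, with a log2 fold change of -0.81 (SE 0.37), and Igtp was higher in all, with 0.28 (SE 0.27). No gene of this list had an unadjusted p-value under 0.05, beside 3.55% of all genes tested. Groups that did not overlap were found in 8.36% of all genes. The most abundant members were Ifitm2, Eif2ak2 and Ifit2, with log2 fold changes of 0.07, -0.15 and 0.21.

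Of 19 NOD-like receptor genes other than Nlrc5, Nlrx1 was the one with a row, at 2.55 to 4.12 CPM over the 6 pools, with a log2 fold change of -0.20 (SE 0.27). Among 14 genes of MHC class II and antigen-presenting cells, 3 were tested. The protease gene Ctss had a log2 fold change of -0.31 (SE 0.23), Cd83 one of -0.11 (SE 0.40), and H2-DMa, which helps to load class II molecules, one of 0.02 (SE 0.22). Their groups overlapped.

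Immune cells express class I genes and can lie beside the lens. Macrophage markers had a row in 13 of 14 cases, with a sum of 100.2 to 182.9 CPM in control and 90.5 to 118.0 CPM in CKO. Lower means in CKO were seen for 12 of the 13. The median log2 fold change was -0.43, and 2 of them passed an unadjusted p-value of 0.05, C1qa and Lyz2, with log2 fold changes of -0.79 (SE 0.29) and -0.70 (SE 0.21), beside 3.55% of all genes. Without control replicate 2 the median was -0.16, with 11 genes lower. Of the lymphocyte and natural killer list, 2 of 12 genes were tested, Lck and Nkg7, with a summed level of 3.85 to 6.77 CPM over all pools. The macrophage sum was highest in control replicate 2 and CKO replicate 2. Nlrc5 was also highest in control replicate 2 but lowest in CKO replicate 2, and the part of immune cells in the level of any member was not tested.

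Vessel markers (10 of 10 tested) summed to 296 to 393 CPM in control and 269 to 344 CPM in CKO. Their median was -0.39 on the log2 scale, with 1 gene, Esam, with an unadjusted p-value under 0.05, beside 3.55% of all genes tested. The blood list (4 of 8 tested) had a median of -0.87, retina (12 of 12) 0.16, pigment cells (7 of 8) 0.05, mesenchyme (10 of 11) 0.59 and lens epithelium (10 of 10) -0.03, and in each of these lists 0 genes passed an unadjusted p-value of 0.05. Single pools set several of these medians. Without control replicate 2, the median of blood was -0.16, that of retina was -0.14 and that of vessels was -0.23. The mesenchyme median was -1.22 without CKO replicate 2 and 1.96 without control replicate 1, and that of pigment cells was -1.04 and 1.31 without the same pools.

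**Figure D3:**
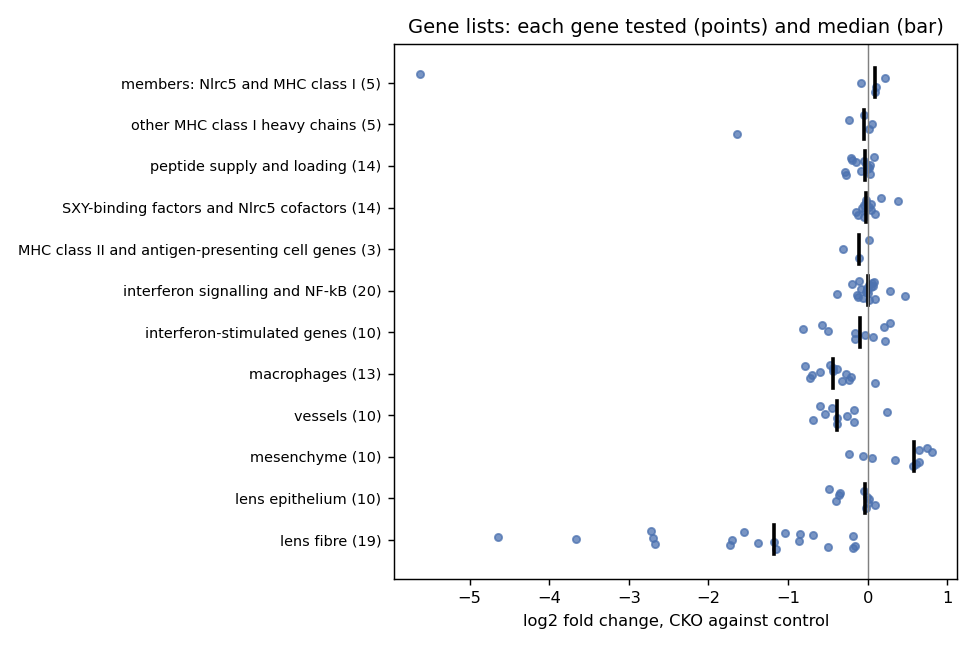
Log2 fold changes of CKO against control for each tested gene of 12 lists, with a black bar at the median of a list and the number of genes tested in brackets. The class I, loading, cofactor and interferon signalling lists lie around 0, Nlrc5 lies at -5.63, and the lens fibre genes reach down to -4.64.

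Lens fibre genes were lower in CKO and varied between control pools as Nlrc5 did. All 19 genes of the list were lower on average, 12 with an unadjusted p-value under 0.05 (beside 2.24% of all genes that were lower and passed it), and the median log2 fold change was -1.18 (-0.63 without control replicate 2, with 15 genes lower). The list was chosen with earlier results of these data known, so these counts are a description and not independent support. Their summed level was 37096, 79503 and 27132 CPM in control replicates 1, 2 and 3 and 28132, 22729 and 19857 CPM in CKO. Relative to control replicate 1, the sum was 2.14 times as high in control replicate 2 and Nlrc5 was 2.29 times as high. As a share of the summed fibre list, Nlrc5 was at 0.0336%, 0.0360% and 0.0383% in the control pools and at 0.00254%, 0.000671% and 0.00105% in the CKO pools. Nlrc5 thus kept a narrow ratio to the fibre sum in control and lay far below that ratio in CKO.

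The genes with the pattern most like Nlrc5 over the 6 libraries were ranked by Pearson's r of log2 CPM, as a description without a test, since the libraries fall into a high and a low group. They were Rabep1 (r = 0.999), Dnase2b (0.997), Plekhs1 (0.992), Washc2 (0.988), Cyb5d2 (0.983), Myo7b (0.981), Acaa1b (0.980), Dnm3 (0.979), Prpf18 (0.979) and Trpc6 (0.978). In all 10 the groups did not overlap, which the choice by likeness to Nlrc5 favours. Over all genes tested, 4.69% were lower in this way. The likeness is one of shape and not of size, as the log2 fold changes ran from -0.12 for Prpf18 and Rabep1 to -3.98 for Plekhs1 and -4.64 for Dnase2b. By Spearman's rho, 55 genes reached a value of 1, and 5 of the 10 were among them.

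Dnase2b, which encodes the lens nuclease DNase IIβ, had the log2 fold change nearest to that of Nlrc5 among these 10 genes, with 12.9, 22.6 and 7.54 CPM in control and 0.973, 0.305 and 0.468 CPM in CKO. Plekhs1 had 5.51, 14.8 and 4.13 CPM in control and 0.843, 0.305 and 0.416 CPM in CKO. In both genes control replicate 2 was highest and CKO replicate 2 lowest, as in Nlrc5. None of the measured targets was among these 10 genes. Nlrc5 was chosen for its fall, so the ranks of the targets largely restate their differences between the groups given above. Of 12878 genes ranked from the most to the least alike, H2-D1 was at 6181 (r = -0.021), Tapbp at 8099 (r = -0.23), B2m at 9366 (r = -0.34) and H2-K1 at 12304 (r = -0.71).

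**Figure D4:**
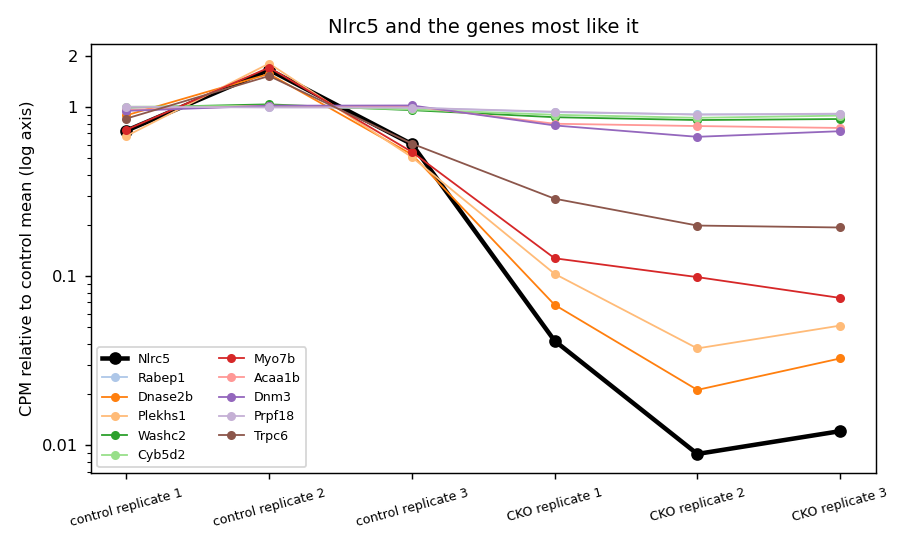
CPM relative to the mean of the control pools, on a log axis, for Nlrc5 (black) and the 10 genes with the highest Pearson's r with it, where the lines join the values of one gene and the pools have no order. Dnase2b and Plekhs1 lie nearest to Nlrc5, and Rabep1, Washc2, Cyb5d2, Acaa1b, Dnm3 and Prpf18 stay close to 1 in all pools.

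The genes around Nlrc5 on chromosome 8 did not share its low level. Within 250 kb of the gene, 7 genes were tested, with log2 fold changes from -0.25 to 0.82. Herpud1, the nearest upstream gene tested, starts at -47.9 kb from the start of Nlrc5. It was at 39.5, 48.1 and 37.4 CPM in control and 35.1, 35.8 and 35.2 CPM in CKO, all CKO pools below all control pools, with a log2 fold change of -0.24 (SE 0.11, unadjusted p = 0.0701). Cpne2, the nearest downstream gene tested, starts at 98.6 kb and was higher in all CKO pools, at 10.3, 8.70 and 8.85 CPM against 6.27, 5.43 and 4.13 CPM.

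The log2 fold change of Cpne2, which encodes a copine, was 0.82 (SE 0.21, unadjusted p = 0.00603, adjusted p = 0.769 in edgeR). The other 5 were Nup93 (0.02), Rspry1 (0.14), Fam192a (0.03), Arl2bp (-0.15) and the chemokine gene Cx3cl1 (-0.25) on the log2 scale, and their groups overlapped. Groups that did not overlap were thus found in 2 of the 7 neighbours, beside 8.36% of all genes tested.

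**Figure D5:**
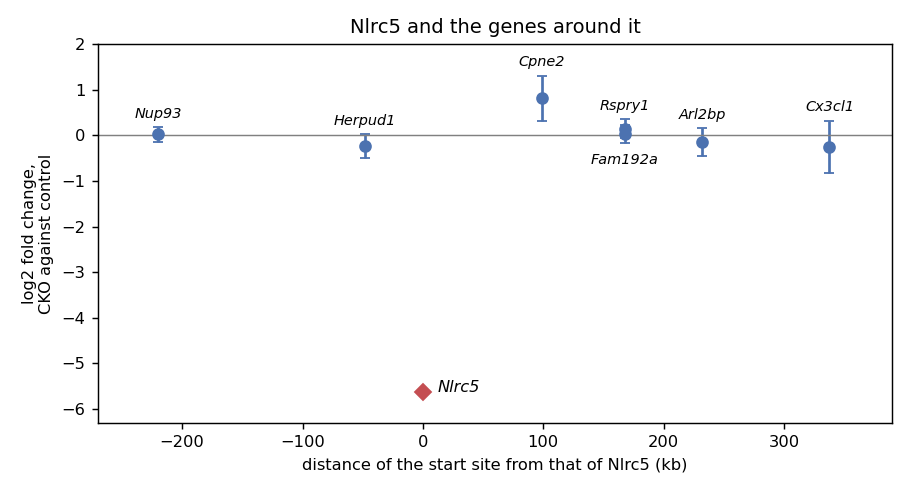
Log2 fold changes of CKO against control with 95% intervals from edgeR for 7 genes, by the distance of their start site from that of Nlrc5 in kilobases. Nlrc5 (red diamond, -5.63, no interval drawn) lies below all of them, and Cpne2 at 98.6 kb is the highest at 0.82.

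B2m also served the study as a reference gene of its quantitative PCR, as did Sdha. Its primers show which part of the transcript that assay reads.
B2m forward: catacgcctgcagagttaagc
B2m reverse: gatgcttgatcacatgtctcg
The forward primer lies in exon 2 (chr2:122151095-122151115) and the reverse primer in exon 3 (chr2:122151649-122151669) of the 4 exons in GRCm38, with a product of 80 bases. In these libraries, B2m had a log2 fold change of 0.11 (SE 0.20) and Sdha one of -0.04 (SE 0.07), with groups that overlapped in both. B2m varied more between the CKO pools (a coefficient of variation of 25.8%) than between the control pools (12.0%).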

How the data were processed

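PolyA RNA of 6 lens pools was sequenced from stranded libraries. The authors aligned reads to mm10 with TopHat2 2.0.13, counted fragments per RefSeq gene with HTSeq 0.6.1, and deposited these raw counts for genes whose mean FPKM exceeded 1 in control or in CKO. The depth is given above. Genes that reached 10 counts in 3 or more libraries were tested in edgeR 4.0.16 (R 4.3.3) with TMM factors, a robust quasi-likelihood fit over all genes and Benjamini-Hochberg adjustment at 0.05. The steps were tested on simulated data. Pools are separate samples by their labels, and p-values measure the spread between them. Log2 CPM for likeness used a prior count of 1. Positions came from GENCODE M21 and promoters from RefSeq (GRCm38.p6), in which Nlrc5 and Tap2 had no entry. A planned comparison of protein sequences was not run, and some named genes are not reported here.

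Members and lists were chosen with earlier results of these data known. Named are all members, their neighbours, the 10 genes most like Nlrc5, PCR reference genes and, per list, genes with an unadjusted p-value under 0.05 or the 3 most abundant. Outside this rule, H2-Q4, H2-M5, Psmb10, Lap3, Erap1, Kat2b, Rfxank, Rfx5, Rfxap, Irf1, Socs1, Ifit3, Igtp, C1qa, Lyz2 and Esam were chosen after their values were seen, or are needed for the heavy chain sum. Alternatives were DESeq2 1.42.0 and limma voom (limma 3.58.1), other scaling and filters, a replicate block, and each library left out.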

Additional observations from a re-analysis of the deposited data

How the results depend on the processing

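Over the settings that kept all 6 libraries (DESeq2 size factors, crystallins left out, DESeq2's Wald test, limma voom, no filter, a mean CPM of at least 1, no robust fit and a replicate block), the log2 fold change was -5.63 to -5.55 for Nlrc5, 0.22 for H2-K1, -0.16 to -0.084 for H2-D1, 0.086 to 0.11 for B2m and 0.091 to 0.11 for Tapbp. Leaving out 1 library at a time, the ranges were -6.51 to -5.04 for Nlrc5, 0.13 to 0.29 for H2-K1, -0.42 to 0.22 for H2-D1, -0.11 to 0.25 for B2m and -0.013 to 0.24 for Tapbp. The sign of H2-D1 turned without CKO replicate 1 (0.22) and without control replicate 3 (0.0059), and those of B2m (-0.11) and Tapbp (-0.013) turned without CKO replicate 2. The median of the targets ranged from -0.064 to 0.24. Without the mesenchyme-rich pools, chosen after seeing the data, B2m was at -0.00067 and Tapbp at -0.095. The cause of these turns was not tested. The number of genes with an adjusted p-value under 0.05 was 85 by DESeq2's Wald test and 0 to 8 when 1 library was left out (8 without control replicate 2, 1 without control replicate 3), and the number with an unadjusted p-value under 0.05 was 268 to 1243. Same-numbered pools deviated with correlations of -0.49, 0.090 and 0.44, and control replicate 1 correlated best with CKO replicate 2, so the numbers do not pair the pools. With the replicate block, 0 genes passed, 516 had an unadjusted p-value under 0.05, and Nlrc5 was at -5.55.

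The promoters with both motifs numbered 4 with the 250 bases before the start alone, as with the full window. Pools and not depth limit most values, but H2-K1, H2-D1 and Nlrc5 in CKO rest on fewer than 100 counts per library, and a count of 3 carries a counting error of 57.7%.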
